A study of Mus musculus with 6 samples.

Results

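Kinesins are motor proteins that walk along microtubules, and this account covers the kinesin genes measured in odour-detecting neurons, in the rest of their epithelium and in brain. They were found by name: a probe set, a group of short probes for 1 transcript, was taken where its only platform gene symbol was Kif or Kifc followed by a number and at most 1 letter from a to c. That gave 103 probe sets for 40 of the 18193 genes on the arrays, 63 probe sets on chip A and 40 on chip B, and 12 of the genes were on both chips. By known role, 13 of the genes act in cell division, 10 carry cargo in axons and neurons or shape their microtubules, 8 act in cilia and 9 have other roles.

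RNA came from 3 populations, all from OMP-GFP mice, in which GFP replaces the coding region of Omp and so marks mature olfactory and vomeronasal sensory neurons. These were the mature olfactory sensory neurons (OSNs), isolated by fluorescence (about 500000 cells), the olfactory epithelium left without them (about 2500000 cells, here the residual epithelium), and brain with its olfactory bulbs taken off. The sources used here do not give age, sex, strain, zygosity or how many mice were pooled. Each population had 1 array on each chip of an Affymetrix mouse expression pair, chip A and chip B, so no difference below has a replicate check and no test across samples was possible.

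The values are probe set signals, a brightness on a linear scale, and median signals lay between 194.65 and 257.7 over the 6 arrays. The 6 mature OSN markers summed to 164664 in OSNs, 4385 in the residual epithelium and 3837 in brain, and OSNs were above either by at least 2-fold for all 6. Signals under the floor (70.3 on chip A, 79.7 on chip B, the lower quartile) were raised to it before a log2 ratio was taken within a chip, and a ratio with its lower signal under the floor appears as "at least". Genes entered a comparison, and are called counted, when the higher signal reached the chip median (222 on chip A, 243.7 on chip B), and were called higher or lower from 2-fold. Each gene is represented by its probe set of highest mean signal percentile. Of the 100 probe sets present on both chips, 99 were counted on both in each comparison. Their log2 ratios differed between chips with an SD of 0.25 for OSNs over the residual epithelium, 0.29 for OSNs over brain and 0.34 for residual epithelium over brain. Chip A also sat apart from chip B in these ratios by a mean of 0.23, -0.19 and -0.42 log2 units, comparison by comparison, so ratios are read within a chip. Between probe sets of 1 kinesin gene the SD was larger: 0.50 over 18 genes, 0.68 over 17 genes and 0.83 over 20 genes, comparison by comparison. These SDs do not stand for the spread between animals, and how far the SD between chips holds for genes of low signal was not examined. Signals of different genes come from different probes and are not ranked against each other.

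Kinesins share a motor domain that turns ATP hydrolysis into steps along a microtubule. In dividing cells they build the spindle, move chromosomes and complete cytokinesis. In neurons they carry vesicles and organelles from the cell body down the axon, and in cilia they carry building material from the base to the tip. An OSN has a long axon to the olfactory bulb and a tuft of sensory cilia that hold the odour transduction proteins, and it no longer divides.

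Set against residual epithelium, OSNs had higher signals of most ciliary kinesins and lower signals of most mitotic kinesins, while the neuronal transport kinesins overlapped the ciliary ones. Of 40 kinesin genes 32 were counted, 9 at least 2-fold higher in OSNs and 10 lower, against 12.8% higher and 18.7% lower among the 12254 genes counted. Ciliary kinesins were called higher for 6 of 7 counted members and lower for none, with a median log2 ratio of 1.11 over all 8. Neuronal transport kinesins were higher for 2 of 9 and lower for 1, with a median of 0.64 over all 10. Of the mitotic kinesins 9 of 10 were lower and none higher, with a median of -2.07 over all 13. That median is the ratio of Kifc1, a bound, so its size depends on the floor. The median over all 18193 genes was 0. Other kinesins were higher for 1 of 6.

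**Figure D1:**
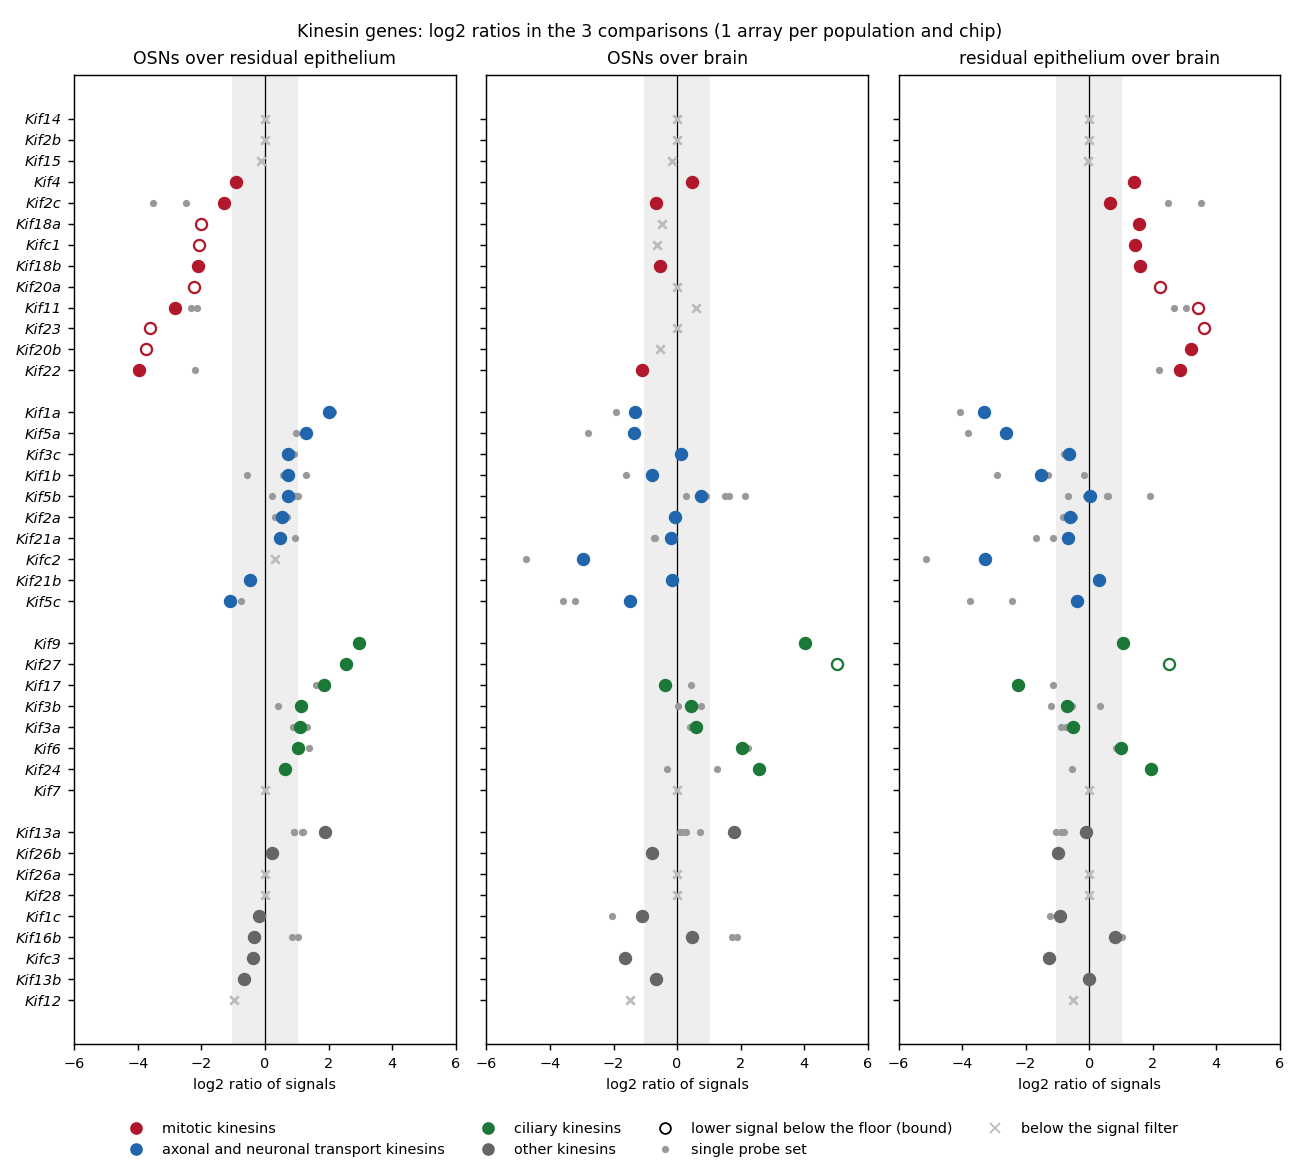
Log2 ratios of the 40 kinesin genes in the 3 comparisons, grouped by role. Large points are the probe set that stands for a gene (open where the lower signal was under the floor, so that the ratio is a bound), small points are the other counted probe sets, crosses are genes below the signal filter, and the grey band is less than 2-fold. In OSNs over the residual epithelium, 9 mitotic kinesins lie left of the band and 6 ciliary kinesins right of it.

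Among ciliary kinesins, the largest ratios belonged to Kif9 and Kif27, known from motile cilia. Kif9, whose product is a part of the flagellar and motile ciliary axoneme, had 2607 in OSNs, 334.7 in the residual epithelium and 159.3 in brain. The OSN signal was 7.79-fold higher than in the residual epithelium and 16.4-fold higher than in brain. Kif27, a relative of Kif7 known from motile cilia, had 2626 in OSNs, 452.5 in the residual epithelium and 33.5 in brain, the last below the floor. Its ratios were 5.80-fold over the residual epithelium and at least 32.9-fold over brain. Each of these genes rests on 1 probe set, with the order of signals OSNs, residual epithelium, brain. Kif6, also known from motile cilia, showed the same order with both probe sets: 1179 in OSNs, 575.9 in the residual epithelium and 287.5 in brain for 1, and 1008, 390.0 and 216.2 for the other. Its OSN signal was 2.05-fold that of the residual epithelium, at the edge of the call, and 4.10-fold that of brain.

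The motors of intraflagellar transport, the traffic that builds a cilium, had ratios over the residual epithelium close to that of Kif6. Kif3a and Kif3b pair, with the accessory protein Kifap3, into the main motor of this traffic towards the ciliary tip. On chip B, Kif3a had 3789 in OSNs, 1773 in the residual epithelium and 2527 in brain, and 3436, 1885 and 2486 with its other probe set there. On chip A its probe sets read 1346 and 1356 in OSNs, 540.6 and 588.2 in the residual epithelium, and 1008 and 984.3 in brain. All 4 were highest in OSNs and lowest in the residual epithelium, with log2 ratios of 0.87 to 1.32 between those populations and 0.42 to 0.58 between OSNs and brain. Kif3b had 1008 in OSNs, 462.5 in the residual epithelium and 744.5 in brain, 2.18-fold higher in OSNs than in the residual epithelium and within 2-fold of brain. Its 4 probe sets were all higher in OSNs than in the residual epithelium, by 0.41 to 1.23 log2 units. Kifap3, which is no kinesin and was chosen for its role with Kif3a and Kif3b, had 3029 in OSNs, 1275 in the residual epithelium and 3143 in brain.

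Kif17, a second motor of cilia and dendrites, known from cultured cells to help bring olfactory cyclic nucleotide-gated channels into cilia, had 746.5 in OSNs, 207.4 in the residual epithelium and 972.4 in brain. OSNs exceeded the residual epithelium 3.60-fold, and a second probe set gave a log2 ratio of 1.60 there against 1.85. Against brain Kif17 stayed within 2-fold, and its probe sets had opposite signs (-0.38 and 0.45). Kif24, a centriolar protein that restrains cilium assembly, had 1325 in OSNs, 858.8 in the residual epithelium and 220.6 in brain. It was within 2-fold between OSNs and the residual epithelium and 2.59 log2 units higher in OSNs than in brain, where its 2 other probe sets gave 1.27 and -0.33. Kif7, a regulator of hedgehog signalling at the ciliary tip, lay below the floor in all 3 populations (30.4 in OSNs, 45.6 in the residual epithelium and 34.0 in brain).

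**Figure D2:**
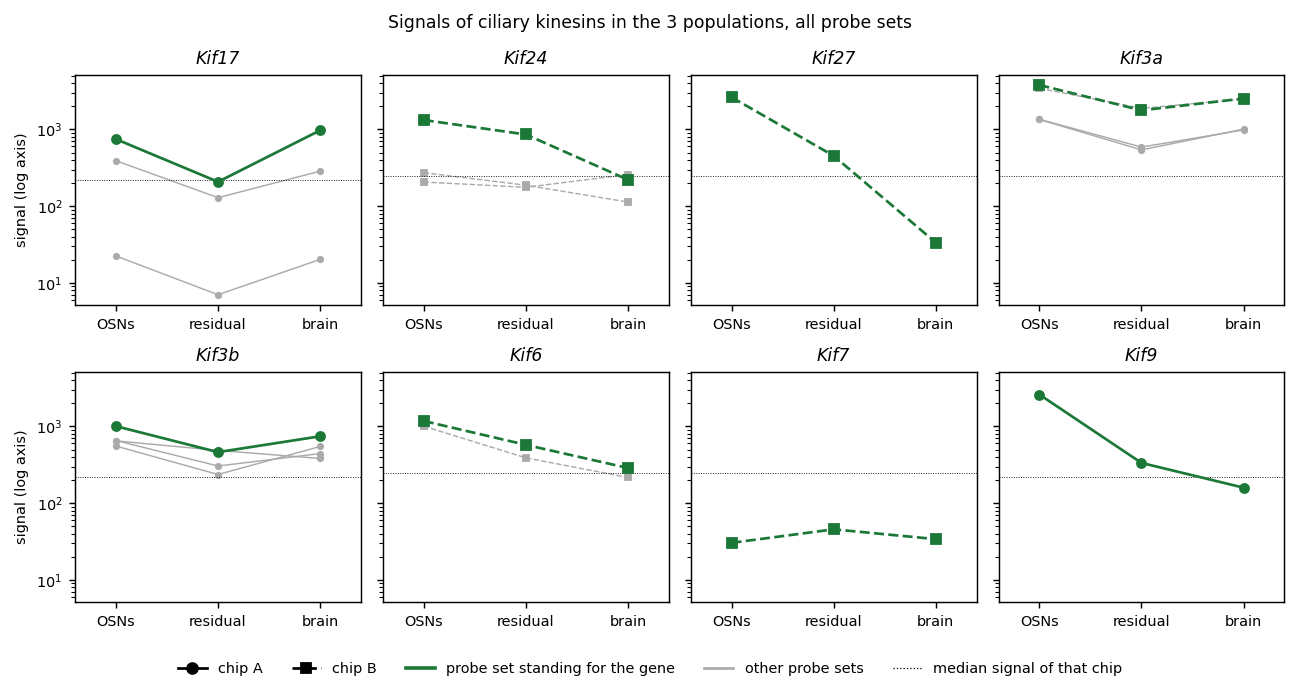
Signals of the 8 ciliary kinesins in OSNs, residual epithelium and brain, on a log axis, with every probe set of chip A (circles, solid) and chip B (squares, dashed); the dotted line is the median signal of the chip that holds the coloured probe set. Kif9, Kif27 and Kif6 step down across the 3 populations, while Kif3a and Kif17 are lowest in the residual epithelium.

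Taken by probe set, 9 of 9 counted ciliary probe sets on chip A and 7 of 7 on chip B had a higher signal in OSNs than in the residual epithelium, 8 and 4 of them by at least 2-fold. Those on chip A belong to Kif3a, Kif3b, Kif9 and Kif17, and those on chip B to Kif3a, Kif6, Kif24 and Kif27, so they are not separate members. The share over all counted probe sets was not taken. Both Kif17 probe sets and 1 of Kif24 were counted through the OSN array alone, which fixes their sign. Of the 6 genes called higher, 5 had both signals at the chip median, so the filter did not fix their sign. Markers of multiciliated respiratory cells moved the same way: 5 of 6 were at least 2-fold higher in OSNs, against 12.8% of all genes counted. Foxj1 and Tekt1 among them were counted through the OSN array alone. The summed signals of the list were 7582 in OSNs, 1699 in the residual epithelium and 874.1 in brain, and no marker was under the floor in OSNs. The part of such cells in the result was not tested. With quantile normalization Kif3a fell short of the call (0.95), as did Kif6 with a pseudocount in place of the floor (0.94).

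In the 10 mitotic kinesins that were counted, the signal was highest in the residual epithelium. Kif23, a motor of the central spindle needed for cytokinesis, had 14.0 in OSNs, 865.0 in the residual epithelium and 27.0 in brain, and was at least 12.3-fold lower in OSNs than in the residual epithelium. Neither of its other probe sets was counted. They read 74.4, 43.7 and 41.7, highest in OSNs, and 0.8, 92.5 and 0.6 in the same order. Kif20b, which also acts in cytokinesis, had 71.5 in OSNs, 1063 in the residual epithelium and 115.7 in brain, at least 13.3-fold lower in OSNs. Only 1 of its 4 probe sets was counted. The others read 2.5, 1.4 and 53.5 in OSNs and 37.5, 104.0 and 39.3 in the residual epithelium. Kif11, the motor that pushes spindle poles apart, had 106.5 in OSNs, 763.8 in the residual epithelium and 58.6 in brain, 7.17-fold lower in OSNs, and its other 2 probe sets gave log2 ratios of -2.14 and -2.32. With the probe sets that stand for these 3 genes, the OSN signal was below the chip median and the residual signal well above it. In bulk RNA like this, fewer dividing cells and less of the transcript per cell cannot be told apart.

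Kif22, which holds chromosome arms to the spindle, had 157.0 in OSNs, 2471 in the residual epithelium and 337.2 in brain with the probe set that stands for it, 15.7-fold lower in OSNs. That probe set has a name ending in x, which marks probes that can bind other transcripts. A probe set of the same gene whose name ends in s read 4.9, 324.6 and 13.6, and 1 with a plain name read 4.7, 191.7 and 7.1, so all 3 were highest in the residual epithelium, and with the plain one the gene would not have been counted. Kif18b, a motor that trims astral microtubules, was the only mitotic kinesin above the chip median everywhere, with 554.9 in OSNs, 2408 in the residual epithelium and 797.9 in brain, 4.34-fold lower in OSNs than in the residual epithelium. Kif20a, which brings the chromosomal passenger complex to the central spindle, had 34.0 in OSNs, 331.3 in the residual epithelium and 26.9 in brain (at least 4.71-fold lower in OSNs). Kif18a, which limits chromosome movements at metaphase, had 61.6, 286.9 and 97.5 in the same order (at least 4.08-fold lower). The Kif18a call ended with the floor at percentile 40 (-0.97), and its other probe set, on chip B, was under the floor in all 3 populations.

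Kifc1, a minus-end motor that focuses spindle poles, had 59.5 in OSNs, 295.7 in the residual epithelium and 107.8 in brain, at least 4.21-fold lower in OSNs. The annotation also holds the related gene Kifc5b, and how far the Kifc1 probes, in a probe set ending in s, tell them apart is not known here. Kif2c, a microtubule depolymerase of the centromere, was 2.46-fold lower in OSNs with the probe set that stands for it (140.8 in OSNs, 346.3 in the residual epithelium and 222.0 in brain), a call that ended with a pseudocount (-0.98). Its other counted probe sets gave at least 5.58-fold (41.8, 392.1 and 64.1) and at least 11.4-fold (11.5, 804.6 and 24.5). Kif4, a motor bound to condensed chromosomes, had 229.8 in OSNs, 435.6 in the residual epithelium and 164.9 in brain, and its log2 ratio of -0.92 fell short of a call. Kif14, Kif15 and Kif2b were below the signal filter in all 3 populations.

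**Figure D3:**
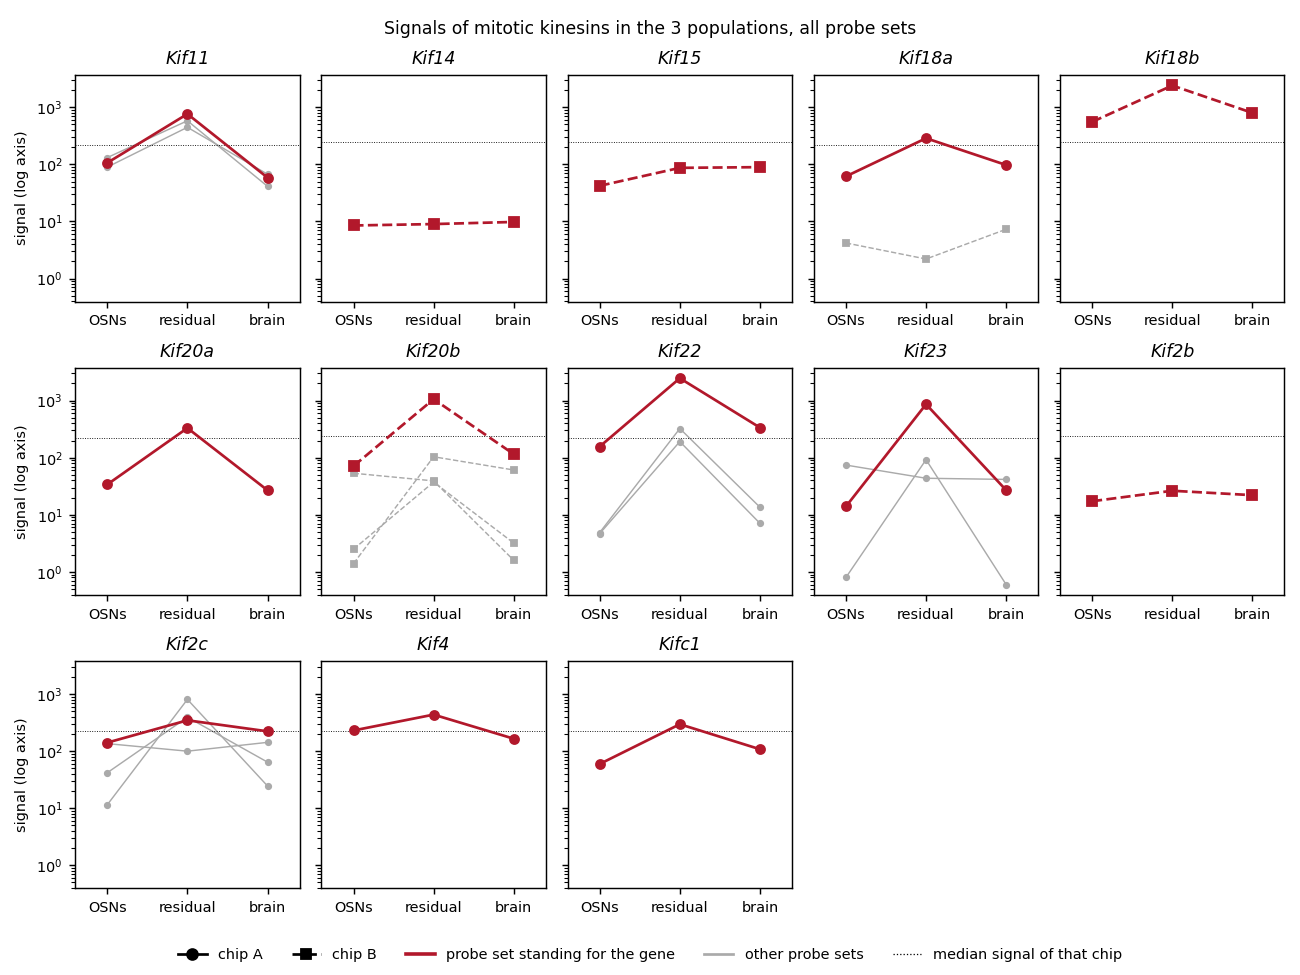
Signals of the 13 mitotic kinesins in OSNs, residual epithelium and brain, on a log axis, with every probe set (circles and solid lines for chip A, squares and dashed lines for chip B); the dotted line is the median signal of the chip that holds the coloured probe set. In the 10 genes that reached that line anywhere, the coloured probe set was highest in the residual epithelium.

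All 13 counted mitotic probe sets on chip A and both on chip B had a lower signal in OSNs than in the residual epithelium. Several of these belong to the same gene. Only the Kif4 and Kif18b probe sets had both signals at the chip median, so for the rest the filter fixed the sign. Of the 9 genes called lower, only Kif18b had both signals at the chip median. The other 8 passed the filter through the residual array alone, which fixes their sign and not their size. The same array held the progenitor markers, 3 of 3 measured at least 2-fold lower in OSNs (summed signals 325.7 in OSNs, 7265 in the residual epithelium and 2547 in brain, Neurog1 under the floor in OSNs and brain). Blood and marrow markers moved the same way. Neutrophil and marrow markers summed to 1512 in OSNs, 67709 in the residual epithelium and 978.9 in brain (7 of 7 lower in OSNs, Camp and Elane under the floor there). Erythroid markers summed to 863.3, 10332 and 1452 in the same order (3 of 4 lower), lymphocyte markers to 499.6, 9079 and 629.4 (5 of 6 lower), and myeloid markers to 1299, 22154 and 3974 (5 of 5 lower). Horizontal basal cell markers summed to 230.3, 1407 and 83.4 (3 of 3 lower). Of all genes counted, 18.7% were lower. Most of the progenitor, blood, marrow and basal cell markers called lower were counted through the residual array alone, which fixes their sign. The part of each of these cell types in the mitotic kinesin signal was not tested.

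A list of spindle and cytokinesis genes that work with mitotic kinesins was examined beside them. Of 23 measured, all counted, 22 were at least 2-fold lower in OSNs than in the residual epithelium, against 18.7% of all genes counted, with a median log2 ratio of -2.96. With signals floored, the lowest ratios were those of the proliferation marker Mki67 (73.0 in OSNs, 3947 in the residual epithelium and 11.5 in brain) and of the spindle checkpoint gene Bub1b (34.3, 2389 and 33.6 in the same order), the last a bound, as were those of Birc5, Bub1, Cdk1, Ndc80 and Nuf2, so the order at the low end is set by the floor. The highest were those of Tpx2, a spindle assembly factor (1271, 775.4 and 862.7, log2 ratio 0.71), and of Prc1, a bundler of the central spindle (485.2, 1211 and 103.3, log2 ratio -1.32). The Tpx2 probe set has a name ending in x, so its probes can bind other transcripts, and its signals may not be those of Tpx2 alone. Only 4 of the 22 had both signals at the chip median. Cenpe, a kinetochore kinesin whose symbol the naming rule does not take in, belongs to this list and had 105.1 in OSNs, 2284 in the residual epithelium and 113.2 in brain.

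Kinesin promoters were examined for short motifs, using RefSeq promoters (build GRCm38.p6, 250 bases before to 50 after the start site) that matched 32 of the 40 genes. Many genes of late cell division are known to carry a cell cycle genes homology region (CHR), here searched as TTTGAA on both strands (TTCAAA on the other), often near CCAAT boxes (CCAAT, or ATTGG on the other strand). Cilia genes are known for X-boxes bound by RFX factors, here searched by core letters alone, GTTGCC or GGCAAC. The promoters of the mitotic kinesins with the 4 lowest floored ratios are shown with CHR and CCAAT letters in capitals, followed by that of Kif9, the ciliary kinesin with the highest ratio, with X-box core letters in capitals. The ratio of Kif20a, a bound, falls below that of Kif11 with the floor at percentile 10 (-3.28 and -2.84), and Kif20a was not matched to a promoter. Each is given 5′ to 3′ on the strand of its gene.
Kif22 (chr7:127042371-127042670, minus strand): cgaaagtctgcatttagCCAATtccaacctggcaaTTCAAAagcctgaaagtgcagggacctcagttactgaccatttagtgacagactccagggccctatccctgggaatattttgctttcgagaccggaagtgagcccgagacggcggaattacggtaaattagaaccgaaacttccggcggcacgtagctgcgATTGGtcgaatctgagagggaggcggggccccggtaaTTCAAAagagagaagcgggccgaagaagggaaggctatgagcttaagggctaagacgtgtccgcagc
Kif20b (chr19:34922108-34922407, plus strand): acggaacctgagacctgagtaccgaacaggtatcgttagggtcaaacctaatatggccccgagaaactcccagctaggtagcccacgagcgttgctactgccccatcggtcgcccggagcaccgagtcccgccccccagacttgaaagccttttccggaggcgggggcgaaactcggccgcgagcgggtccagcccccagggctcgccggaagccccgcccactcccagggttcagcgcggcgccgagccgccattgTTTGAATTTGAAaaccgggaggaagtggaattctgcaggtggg
Kif23 (chr9:61946750-61947049, minus strand): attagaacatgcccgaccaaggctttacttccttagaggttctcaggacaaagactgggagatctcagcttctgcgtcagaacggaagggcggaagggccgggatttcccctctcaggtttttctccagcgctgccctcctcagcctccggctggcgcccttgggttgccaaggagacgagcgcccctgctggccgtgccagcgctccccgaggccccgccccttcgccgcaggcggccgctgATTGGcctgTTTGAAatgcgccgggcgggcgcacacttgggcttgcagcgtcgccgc
Kif11 (chr19:37376132-37376431, plus strand): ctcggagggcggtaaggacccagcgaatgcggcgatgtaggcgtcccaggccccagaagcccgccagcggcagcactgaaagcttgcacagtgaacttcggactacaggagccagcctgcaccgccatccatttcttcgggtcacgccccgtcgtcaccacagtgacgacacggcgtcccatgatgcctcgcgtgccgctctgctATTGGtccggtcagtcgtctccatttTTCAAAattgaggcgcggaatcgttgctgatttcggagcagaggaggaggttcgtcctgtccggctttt
Kif9 (chr9:110476708-110477007, plus strand): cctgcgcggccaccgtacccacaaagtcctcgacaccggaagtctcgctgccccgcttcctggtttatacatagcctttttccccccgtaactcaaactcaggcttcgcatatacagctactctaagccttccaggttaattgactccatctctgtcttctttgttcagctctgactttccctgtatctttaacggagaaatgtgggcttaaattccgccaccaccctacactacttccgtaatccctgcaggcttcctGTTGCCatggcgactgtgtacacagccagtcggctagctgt

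The CHR letters were found in the promoters of 10 of 12 mitotic kinesin genes, against 20.2% of the 27025 genes with a promoter (17.9% of 32851 promoters, since some genes have several). They were in 1 of 8 ciliary kinesin genes (Kif27), 1 of 6 neuronal transport genes (Kif1a) and 1 of 6 other kinesin genes (Kif26b). In Kif23 the first letter lay 3 bases after the start site, in Kif20b 8 and 14 bases after it, in Kif22 17 and 215 bases before it and in Kif11 19 bases before it. Within 20 bases of the start site, a window chosen after the positions were seen, the letters were found in 8 of the 12 mitotic genes, in Kif26b among the 20 kinesin genes of other roles, and in 2.57% of all genes. Kif14 and Kif15, whose signals were too low to count, also hold them, while Kif18a, at least 4.08-fold lower in OSNs, does not. CCAAT letters were in 8 of 12 mitotic, 5 of 8 ciliary, 1 of 6 neuronal transport and 1 of 6 other kinesin genes, against 41.1% of all genes. X-box core letters were in 4 of 8 ciliary genes (Kif3a, Kif9, Kif17 and Kif24), 3 of 6 neuronal transport genes, 2 of 12 mitotic genes and 1 of 6 other kinesin genes, against 14.1% of all genes. No matches of different motifs overlapped in these promoters. A match is a run of letters in a fixed window and was not tested for binding.

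**Figure D4:**
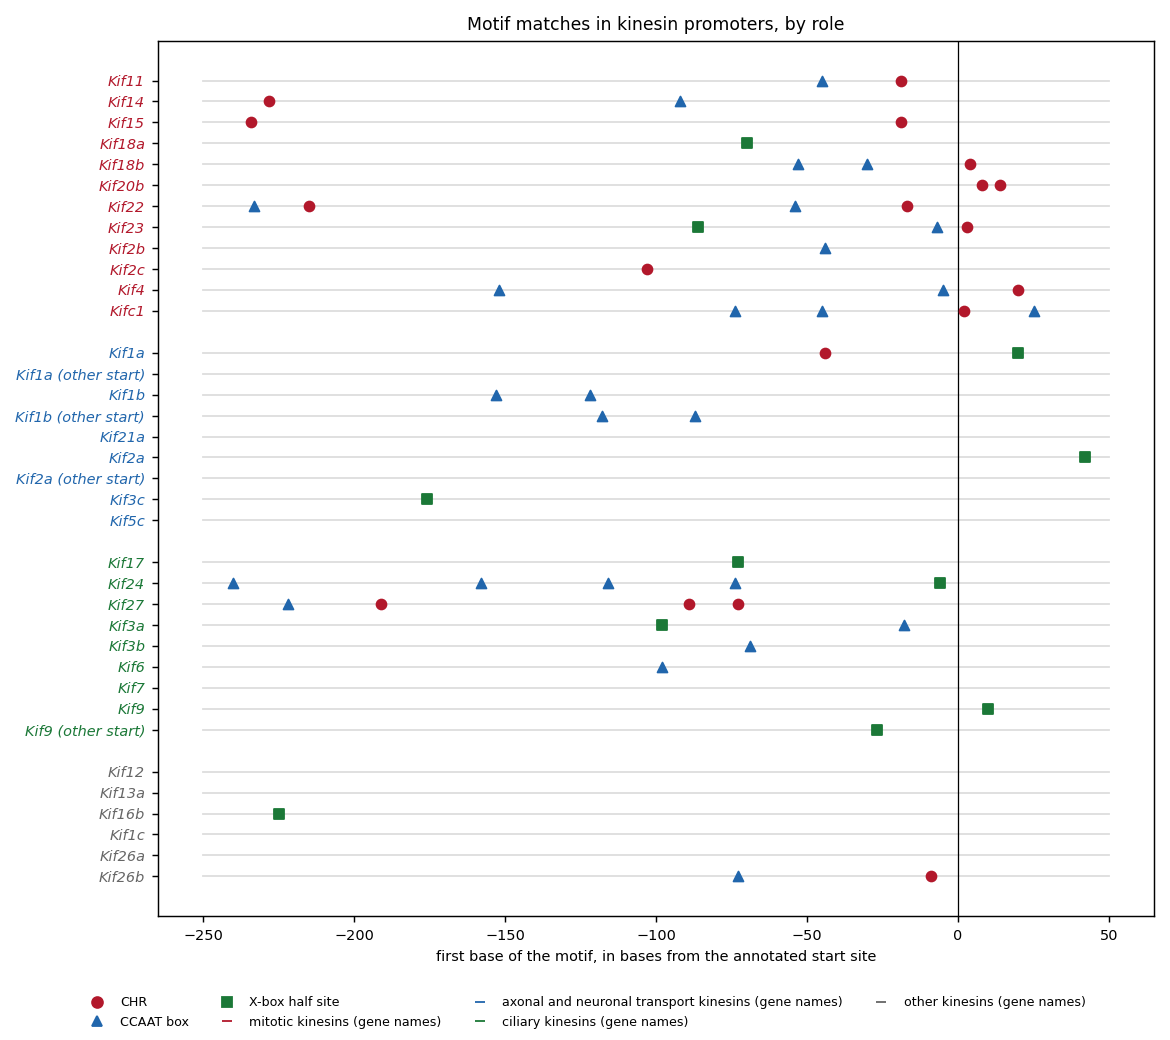
Positions of motif matches in the promoters of 32 kinesin genes, in bases from the annotated start site, with gene names coloured by role. CHR matches (circles) sit within 20 bases of the start site in 8 of 12 mitotic promoters, and X-box core letters (squares) are in 4 of 8 ciliary genes.

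The neuronal transport kinesins split by gene. Kif1a, which carries synaptic vesicle precursors, had 1106 in OSNs, 275.4 in the residual epithelium and 2752 in brain, 4.02-fold higher in OSNs than in the residual epithelium and 2.49-fold lower than in brain. Its other probe set read 657.1, 147.5 and 2483 in the same order. Kif5a, a neuronal heavy chain of conventional kinesin, had 8410 in OSNs, 3460 in the residual epithelium and 21398 in brain, 2.43-fold higher in OSNs than in the residual epithelium and 2.54-fold lower than in brain. On chip A another Kif5a probe set gave log2 ratios of 0.99 and -2.81 for these comparisons. Both genes were therefore ordered brain, OSNs, residual epithelium. With quantile normalization Kif5a fell short of the call over the residual epithelium (0.98).

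The remaining conventional kinesin chains did not follow Kif5a. Kif5c, also neuronal, had 5168 in OSNs, 10975 in the residual epithelium and 14361 in brain, 2.12-fold lower in OSNs than in the residual epithelium and 2.78-fold lower than in brain. The call against residual epithelium ended when the median of its probe sets was taken (-0.93) or the arrays were scaled on shared probe sets (-0.97). On chip A, Kif5c read 189.8 in OSNs, 322.4 in the residual epithelium and 1742 in brain, and another probe set there 102.1, 92.2 and 1240, so chip A and chip B placed residual epithelium at different distances from brain. Kif5b, the chain used in most tissues, had 5107 in OSNs, 3075 in the residual epithelium and 3013 in brain and stayed within 2-fold. Its 6 probe sets were all higher in OSNs than in the residual epithelium, by 0.23 to 1.04 log2 units, and all higher than in brain, by 0.27 to 2.15.

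Kifc2, a minus-end motor known from brain neurons, had 171.0 in OSNs, 136.1 in the residual epithelium and 1319 in brain, 7.71-fold lower in OSNs than in brain. Its second probe set gave a log2 ratio of -4.76 there, with 90.7 in OSNs, 43.1 in the residual epithelium and 2460 in brain. Kif1b, which carries mitochondria and vesicle precursors, had 3699 in OSNs, 2223 in the residual epithelium and 6350 in brain, within 2-fold in both OSN comparisons. Its 5 counted probe sets ranged from -0.58 to 1.30 log2 units for OSNs over the residual epithelium and from -1.60 to -0.72 for OSNs over brain. Of these, 1 was past 2-fold in both, 2.46-fold higher in OSNs than in the residual epithelium and 3.03-fold lower than in brain. Kif21a, Kif21b, Kif2a and Kif3c, which regulate microtubule growth or carry neuronal cargo, were also within 2-fold in both OSN comparisons. Kif21a had 3390 in OSNs, 2432 in the residual epithelium and 3835 in brain, and Kif21b had 1920, 2639 and 2135 in the same order. Kif2a, which prunes axon branches, had 1125, 771.1 and 1171, and Kif3c had 3346, 2011 and 3098. Apart from Kif21b, these genes had their lowest signal in the residual epithelium.

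**Figure D5:**
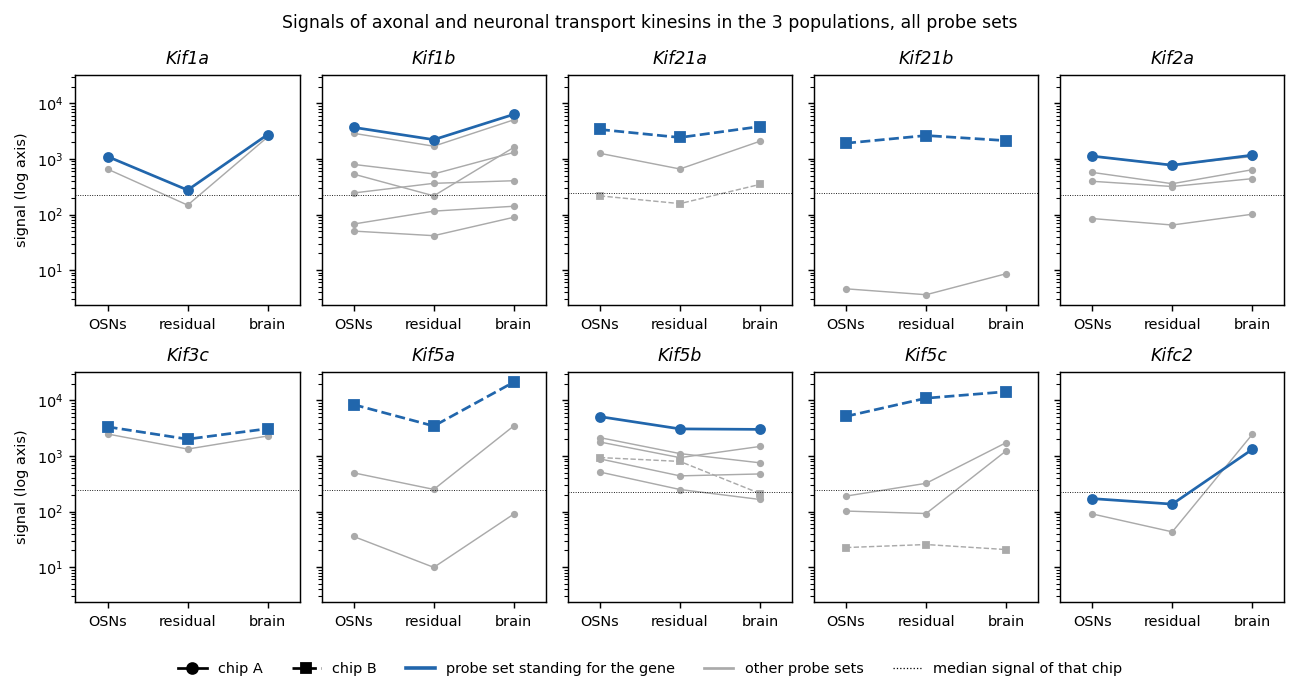
Signals of the 10 axonal and neuronal transport kinesins in OSNs, residual epithelium and brain, on a log axis, with every probe set (circles and solid lines for chip A, squares and dashed lines for chip B); the dotted line is the median signal of the chip that holds the coloured probe set. Kif1a and Kif5a are highest in brain and lowest in the residual epithelium, and Kifc2 reaches the median line in brain alone.

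Against brain, which holds other neurons and glia, 27 kinesin genes were counted, 5 higher in OSNs and 7 lower. Over the 12380 genes counted there, 18.5% were higher and 21.1% lower. Ciliary kinesins made up 4 of the 5 higher genes (Kif6, Kif9, Kif24 and Kif27), with a median log2 ratio of 1.31 over all 8 members. Of these 4, only Kif6 had both signals at the chip median. Over counted ciliary probe sets, the median was 0.45 on chip A and 1.65 on chip B. Of the neuronal transport kinesins 4 of 10 were lower (Kif1a, Kif5a, Kif5c and Kifc2) and none higher, with a median of -0.48. Among the 7 lower kinesins, 4 had both signals at the chip median. Kif22, Kifc2 and Kifc3 were counted through brain alone, which fixes their sign. With the median over probe sets Kif5b (1.20) and Kif16b (1.74) became higher calls, while Kif13a (0.28) was no longer one. Only 4 mitotic kinesins were counted, and Kif22 alone was called, 2.15-fold lower in OSNs. The median over all 13 mitotic members was -0.17, against 0 over all genes, and -0.59 over the 4 counted. In each member not counted, 1 or both signals were under the floor, so the -0.17 does not measure closeness to brain. The Kif22 call ended with quantile normalization (-0.83) and with a pseudocount (-0.84). Brain neuron markers summed to 7316 in OSNs, 2199 in the residual epithelium and 37858 in brain (5 of 6 lower in OSNs than in brain, Gad1 and Calb1 under the floor in OSNs), and brain glia markers to 946.5, 4022 and 24044 in the same order (5 of 5 lower). Their part in the neuronal kinesin ratios was not tested.

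Between residual epithelium and brain, 13 of 33 counted kinesin genes were higher in the residual epithelium and 6 lower, against 22.5% and 18.9% of the 12916 genes counted. Higher were 9 of 10 mitotic kinesins, from Kif4 (2.64-fold), Kifc1 (2.74-fold) and Kif18a (2.94-fold) to Kif11 (at least 10.9-fold) and Kif23 (at least 12.3-fold), and 4 of 7 ciliary kinesins, Kif6, Kif9, Kif24 and Kif27. Only 3 of the 13 higher genes, 2 of them mitotic (Kif18b and Kif22), had both signals at the chip median, and for the other 10 the filter fixed the sign. Kif2c was within 2-fold (1.56-fold) with the probe set that stands for it, but its other 2 counted probe sets gave at least 5.58-fold and at least 11.4-fold. The median log2 ratio was 1.56 for mitotic, 0.50 for ciliary and -0.64 for neuronal transport kinesins, over all members of each list, against 0 over all genes. Lower were Kif1a (9.99-fold), Kifc2 (9.69-fold), Kif5a (6.18-fold), Kif17 (4.69-fold), Kif1b (2.86-fold) and Kifc3 (2.42-fold). Both signals were at the chip median for 4 of these 6, while Kif17 and Kifc2 were counted through brain alone, which fixes their sign. Of all kinesin calls, 68.4% were toward residual epithelium, against 54.3% of the calls over all genes. This became 54.5% (12 higher and 10 lower), against 42.7% over all genes, with the arrays scaled on shared probe sets, and 57.9% (11 and 8), against 48.6%, with ratios centred on their median. The kinesin share was lowest with the filter at percentile 75, at 6 higher and 6 lower, where 53.3% of the calls over all genes were toward residual epithelium. The calls of Kif6 and Kif9 lay near 2-fold and ended with centring, at 0.88 and 0.95 log2 units. Kif6 ended under 4 more alternatives (0.54 to 0.93) and Kif9 with a pseudocount (0.82). Kif18a ended with the floor at percentile 40 (0.97). The call of Kif24 ended when the median of its probe sets was taken (0.70).

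Among kinesins of other roles, Kif13a, which moves endosomal cargo, had 4179 in OSNs, 1129 in the residual epithelium and 1210 in brain, 3.70-fold higher in OSNs than in the residual epithelium. All 5 of its probe sets on both chips were higher in OSNs than in the residual epithelium, by 0.90 to 1.89 log2 units. OSNs exceeded brain 3.45-fold with that probe set, but the other 4 gave 0.11 to 0.72, and the median over all 5, 0.28, was no call. Kif16b, which moves early endosomes, had probe sets of opposite sign for OSNs over the residual epithelium: 453.7 in OSNs, 574.7 in the residual epithelium and 324.3 in brain on chip B, against 316.1, 153.4 and 94.6, and 422.8, 234.0 and 114.5, on chip A. All 3 were higher in OSNs than in brain, by 0.48 to 1.88 log2 units, and their median, 1.74, was a higher call. The vesicle motor Kif1c (2.16-fold) and the minus-end motor Kifc3 (3.12-fold) were lower in OSNs than in brain. The Kif1c call ended with a pseudocount (-0.95) and with quantile normalization (-0.97). Kif13b and Kif26b were within 2-fold in both OSN comparisons, and Kif12, Kif26a and Kif28 were below the signal filter.

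Transcripts of kinesin partners, such as cargo adaptors and light chains, were measured for 14 of 15 genes listed, all counted. The list also takes in Kifbp, whose product binds and holds back several kinesins, and Kifbp is among the 6 higher genes given next. Compared with residual epithelium, 6 had an OSN signal higher by 2-fold or more and none was lower by as much, against 12.8% and 18.7% of all genes counted (median log2 ratio 0.78). Of the 6, Fez1 was counted through the OSN array alone. The highest were the scaffold gene Mapk8ip2 (8976 in OSNs, 2483 in the residual epithelium and 2741 in brain) and the calsyntenin gene Clstn1 (8871, 2740 and 6996 in the same order). The lowest were the mitochondrial adaptor gene Trak2 (2430, 4808 and 3056, log2 ratio -0.98) and the light chain gene Klc4 (890.2, 844.5 and 630.1, log2 ratio 0.08). Cytoplasmic dynein and dynactin, the motor that runs the other way and its activator, had 2 of 18 counted genes higher, or 11.1%, near the 12.8% of all genes counted, and none lower. The median was 0.25 over all 19 measured. Those 2 were the light chain gene Dynlrb2 (9391 in OSNs, 3780 in the residual epithelium and 596.5 in brain) and Dync2h1, the heavy chain of the ciliary dynein (5100, 2473 and 2081). The lowest were Dctn4 and Dctn5, with log2 ratios of -0.30 each.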

How the data were processed

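The authors deposited 2 value tables, 1 per chip, of probe set intensity on a linear scale with 1 colour. Per the submitters' processing notes MAS5 made the values of 5 of the 6 arrays, with no version; for brain on chip A no tool is named. The trimmed mean (percentile 2 to percentile 98) lay between 499.9025 and 499.9679 on all 6 arrays, so each had been scaled to 1 level, which hides differences in total RNA. The sources used here do not give the background correction or detection calls. With 1 array per population and chip no value has an error, and the number of arrays limits the precision.

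Control probe sets (64 per chip) were left out. Of the other 45137, 35041 had 1 platform symbol, 936 several and 9160 none; genes other than kinesins were renamed by Entrez identifier (GRCm38.p6 RefSeq). Signals were floored at percentile 25 and genes filtered at the chip median (percentile 50) before 2-fold calls. The kinesins, role lists and comparisons were chosen with earlier results of these data known. Every kinesin was accounted for, with signals for the 3 role lists, and from each other list the 2 highest and 2 lowest ratios. A second promoter search window was added after the positions were seen. Alternatives were other floors, filters, normalizations and choices of probe set. The computation was checked on simulated arrays. Scripts ran in Python 3.11.15 with pandas 2.3.3 and numpy 2.4.6, and plots were drawn with matplotlib 3.10.9.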

Additional observations from a re-analysis of the deposited data

How the results depend on the processing

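No kinesin called from 2-fold changed sign under any of the 10 alternatives that gave it a value. For a given probe set, another floor, another filter or a pseudocount cannot reverse a sign, so those alternatives did not test it. Of 50 calls over the 3 comparisons, 44 to 50 stayed past 2-fold under the 8 alternatives that kept all 50. Dropping the filter kept all 50 by construction, since it leaves the ratios unchanged. A filter at percentile 75, which counts fewer genes and also leaves the ratios unchanged, kept 38 of 38 by construction. Plain probe sets alone kept 35 of 36. Kinesins lower in OSNs than in the residual epithelium numbered 6 in place of 10 with that filter and 6 with plain probe sets alone, and those higher in the residual epithelium than in brain 6 and 8 in place of 13. Scaling on shared probe sets moved the median over all counted genes by -0.28 for OSNs over brain and -0.26 for residual epithelium over brain. With it, 10 in place of 6 kinesins were lower in the residual epithelium than in brain, and the medians were -0.46 for mitotic and 0.99 for ciliary kinesins in OSNs over brain and -1.10 for neuronal kinesins in the residual epithelium over brain (-0.17, 1.31 and -0.64 as reported). The mitotic median for OSNs over the residual epithelium (-2.07, a bound) was -1.18 with the floor at percentile 40, -1.50 with a pseudocount and -1.45 with plain probe sets. For OSNs over brain it was -0.66 with the floor at percentile 10, and for residual epithelium over brain 1.105 with a pseudocount (1.56 as reported). Over probe sets of a gene, the medians were 0.89 for ciliary kinesins in OSNs over brain and -1.33 for neuronal kinesins in the residual epithelium over brain. With plain probe sets, OSNs over brain gave -0.18 for neuronal and 0.58 for ciliary kinesins, and the residual epithelium over brain 0 for ciliary kinesins (0.50 as reported). Beyond what a floor, filter or choice of probe set does by construction, the cause was not tested. No paired analysis was possible because each population has 1 array per chip and no replicate numbers. Most mitotic kinesins lay near or under the floor in OSNs and brain, so their ratios there are limited by low signal.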

Other observations

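Some partners of kinesins, chosen here after their values were seen, differed from brain. Klc3, a kinesin light chain gene, had 1331 in OSNs, 1173 in the residual epithelium and 63.5 in brain, with OSNs above brain by at least 18.9-fold. Kifbp, whose product binds and holds back several kinesins, had 21483 in OSNs, 7767 in the residual epithelium and 6850 in brain. Fez1, a kinesin adaptor of neurons, had 342.2 in OSNs, 164.7 in the residual epithelium and 3622 in brain. Each is 1 probe set on 1 array per population.

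A pair of probe sets with kinesin names lay outside the naming rule. That of Kifc5b had 8.4 in OSNs, 32.0 in the residual epithelium and 18.5 in brain. A probe set annotated to both Gm26555 and Kif27 had 12.7, 9.9 and 11.8 in the same order. Both were under the floor in all 3 populations, so the second gives no repeat of the Kif27 ratios.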
